A study of Danio rerio with 2 samples.

Results

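The genes described here are the receptors that bring yolk protein into the growing oocyte and the lysosomal cathepsins that cleave it afterwards. They were chosen by function, by name, as 8 genes among the 22328 in the deposited table: the receptor genes *vldlr*, *lrp13* and *lrp2a*, the receptor chaperone gene *lrpap1*, and the cathepsin genes *ctsba*, *ctsla*, *ctsd* and *ctsz*. The choice was made with earlier results of these data known. Each name was looked up as written, then in capitals, then without its paralogue letter, and the first form found was used. All genes under that form were taken, and each of the 8 names led to 1 gene. *ctsla* was found as written, so its name without the letter was not looked up. Whole ovaries of adult AB strain zebrafish were compared between wild type (sox3+/+) and *sox3* knockout (sox3-/-) fish. The knockout carries a CRISPR/Cas9 frame-shift deletion, and neither labels nor methods say which of the mutant lines was sequenced. The libraries are named by their labels, WT for wild type and KO for knockout. RNA of 3 fish of each genotype went into 1 library, which the labels call a mix, so there are 2 libraries and no replicate of either. The spread between fish is therefore unknown, and no p-value is given for any difference.

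In egg-laying vertebrates the liver secretes vitellogenin into the blood under the control of estrogen. Receptors of the LDL receptor family on the oocyte surface bind it, clathrin-coated pits carry it inward, and it is stored in yolk bodies, which are related to lysosomes. Cathepsins cut vitellogenin into the stored yolk proteins, and in many fishes they act again when the oocyte matures and takes up water. These steps belong to the vitellogenic stages of follicle growth, and the comparison asks whether the transcripts of uptake and cleavage differed between ovaries of both genotypes.

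Values are FPKM, the fragments of a gene relative to the length of its transcript and to the size of the library, as the authors calculated them. FPKM is scaled by length, so levels of different genes in 1 library can be ordered. Differences are log2 ratios of KO over WT with a pseudocount of 0.1 FPKM, which shrinks the ratios of low genes. The targeted gene, *sox3*, had 1.18 FPKM in the library labelled WT and 2.16 FPKM in the library labelled KO. That is not the direction which loss of the transcript would give, and the cause was not tested. Both values are low. At a mean of 1 to under 20 FPKM, 19.3% of genes were at least 1.4-fold higher in the library labelled KO. The study's own RT-qPCR of *sox3* ran the other way, lower in knockout ovaries. The aromatase gene *cyp19a1a* was at 2.04 FPKM in the library labelled WT and 1.12 FPKM in the library labelled KO, both low values. The study describes it as lower in the knockout, from these same libraries and from RT-qPCR. The levels of *sox3* and *cyp19a1a* therefore do not check the labels, and each direction below is that of the labels.

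The members other than *lrp2a*, 7 in number, were well expressed, between 38.69 and 655.68 FPKM. As deposited, all 8 values were lower in the library labelled KO, by 1.77% for *ctsla* to 60.5% for *lrp2a*. Of all 13455 genes at 1 FPKM or more, 7026 were lower there as well. The summed FPKM of all genes in that library was 0.967 times that of the library labelled WT. The values of *ctsla* and *ctsz* were close to equal. Their log2 ratios, -0.03 and -0.04, turned to 0.02 and 0.01 when each library was scaled to its summed FPKM. A difference of at least 1.4-fold, the fold that the study used, in genes that reached 1 FPKM in 1 library or both, was found for 1 of the 7 measured members, *ctsba*, and it was lower. None was higher by that fold. The study also set a limit on the false discovery rate, which was not applied here, so counts given here do not follow its full criterion. Over all 13455 genes at 1 FPKM or more, 32.6% were at least 1.4-fold apart, 17.5% lower and 15.1% higher in the library labelled KO. The median log2 ratio was -0.10 over the 7 members and -0.02 over all these genes.

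**Figure D1:**
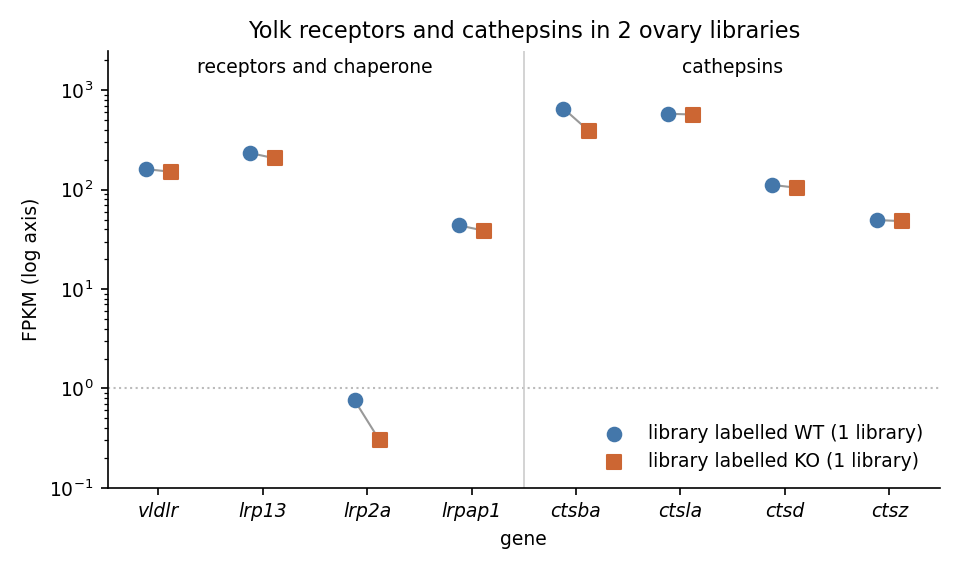
FPKM (log axis) of the 8 genes in the library labelled WT (circles) and the library labelled KO (squares), 1 library each and so without error bars. The line between a pair is steep for *ctsba*, at 655.68 and 392.56 FPKM, and for *lrp2a*, which lies under the dotted line at 1 FPKM in both libraries, at 0.76 and 0.3 FPKM.

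The share of genes past such a fold depends on their level. Among the 828 genes at a mean of 100 FPKM or more, 10.9% were at least 1.4-fold apart, with 6.52% lower and 4.35% higher. Among the 4227 genes from 20 to under 100 FPKM it was 12.5%. For the 7748 genes from 1 to under 20 FPKM, where no member lies, it was 41.4%. In the 1742 genes from 0.5 to under 1 FPKM, where *lrp2a* lies, it was 62.3%. The members fall in different bands of this range, so their ratios are given below beside genes of their own level.

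The most abundant of the receptors was *lrp13* (ENSDARG00000023479), a member of the LDL receptor family known as a vitellogenin receptor of fish oocytes. It was at 233.94 FPKM in the library labelled WT and 206.42 FPKM in the library labelled KO. The log2 ratio of -0.18 corresponds to a level 11.8% lower. In the order of all listed genes it stood at place 354 in the first library and 379 in the second.

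*vldlr* (VLDLR, ENSDARG00000006257) encodes the very low density lipoprotein receptor, the vitellogenin receptor long known from chicken and fish oocytes. It was at 161.18 FPKM in the library labelled WT and 151.54 FPKM in the library labelled KO, a log2 ratio of -0.09 and a level 5.98% lower. Its order among all genes was 497 and 509. The transcripts of the 2 receptors kept nearly the same proportion, with 1.45 FPKM of *lrp13* per FPKM of *vldlr* in the library labelled WT and 1.36 in the library labelled KO. RefSeq lists 9 transcripts of *vldlr*, and the table has 1 value for the gene, so its splice forms could not be told apart.

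*lrpap1* (LRPAP1, ENSDARG00000033604) encodes the receptor-associated protein, a chaperone of the endoplasmic reticulum that keeps receptors of this family from binding ligand too early. It was at 43.72 FPKM in the library labelled WT and 38.69 FPKM in the library labelled KO, a log2 ratio of -0.18. This ratio is close to that of *lrp13*, and the *lrp13* transcript stood at 5.35 times *lrpap1* in the first library and 5.34 times in the second. Of the genes at 20 to under 100 FPKM, the middle 50% had log2 ratios from -0.20 to 0.17, which takes in *lrpap1*.

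*lrp2a* (LRP2, ENSDARG00000102506) encodes megalin, a large scavenger receptor of epithelia such as the kidney tubule. It was at 0.76 FPKM in the library labelled WT and 0.3 FPKM in the library labelled KO, under 1 FPKM in both. Its log2 ratio was -1.10, and -1.31 with a pseudocount of 0.01 FPKM and -0.44 with one of 1 FPKM. Among the genes from 0.5 to under 1 FPKM, 20.8% were lower by 2-fold or more in the library labelled KO. The *vldlr* transcript stood at 212 times that of *lrp2a* in the library labelled WT, so megalin made up 0.173% of the summed FPKM of these 4 genes there and 0.0756% in the other library.

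Summed over *vldlr*, *lrp13*, *lrp2a* and *lrpap1*, the level was 439.6 FPKM in the library labelled WT and 396.95 FPKM in the library labelled KO. The ratio of these sums was 0.903, and 0.934 when each library was scaled to its summed FPKM. The median log2 ratio of the 3 of them at 1 FPKM or more was -0.18. At a mean of 100 FPKM or more, the middle 50% of genes had log2 ratios from -0.20 to 0.10, which takes in both *vldlr* and *lrp13*.

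**Figure D2:**
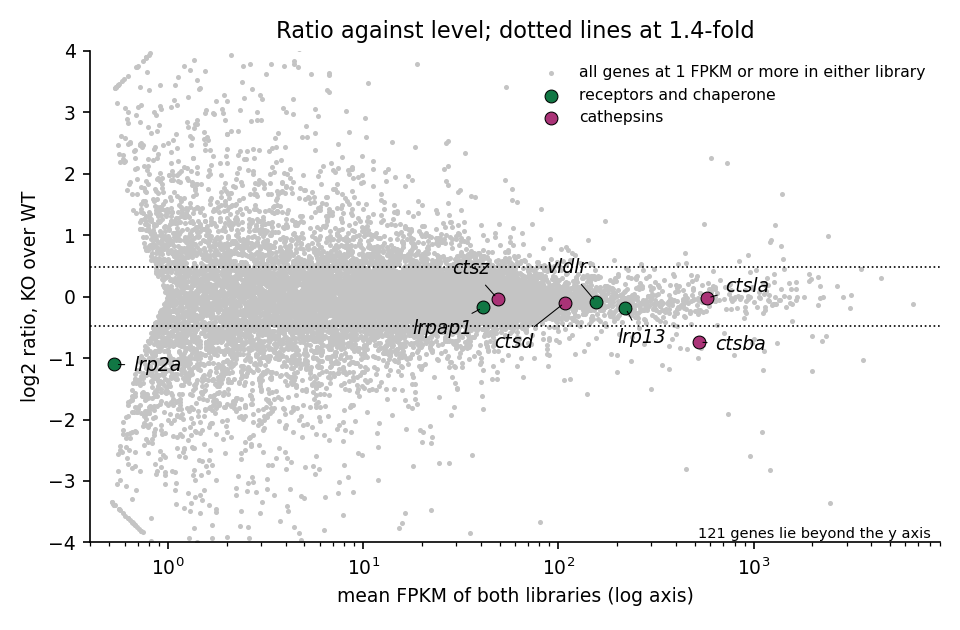
Log2 ratio of KO over WT against the mean FPKM of both libraries (log axis) for the 13455 genes that reached 1 FPKM (grey), with receptors and the chaperone in green and cathepsins in purple. *lrp2a*, which is under 1 FPKM, is drawn as well. *ctsba*, at -0.74, lies under the lower dotted line of 1.4-fold, and the other members above 1 FPKM lie between the dotted lines.

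Of the cathepsins, *ctsba* stood apart from the other 3. *ctsba* (CTSB, ENSDARG00000055120) encodes cathepsin B, a cysteine protease of lysosomes that is found in the yolk of many fishes. It was at 655.68 FPKM in the library labelled WT and 392.56 FPKM in the library labelled KO, 1.67-fold lower, with a log2 ratio of -0.74. Its place in the order of all genes went from 122 to 198. Of the 828 genes at a mean of 100 FPKM or more, 38 (4.59%), *ctsba* among them, had a ratio as low or lower. Of the 210 genes at a mean of 400 FPKM or more, it was 22 (10.5%). So abundant a transcript is little affected by the pseudocount, and the log2 ratio lay between -0.74 and -0.69 under all the pseudocounts and scalings tried.

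*ctsla* (ENSDARG00000007836) encodes a cathepsin L, the other abundant cysteine protease of the yolk. It was at 580.72 FPKM in the library labelled WT and 570.42 FPKM in the library labelled KO, a log2 ratio of -0.03. In the library labelled WT *ctsba* was thus above *ctsla*, at 1.13 times its level, and in the library labelled KO it was below, at 0.688 times. These places 1 and 2 were the only ones that differed between the libraries in the order of the 8 members. *lrp13*, *vldlr*, *ctsd*, *ctsz*, *lrpap1* and *lrp2a* followed in that order in both. With 1 library of each genotype there is no spread against which neighbours in this order could be judged, and *ctsz* and *lrpap1* were close together.

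*ctsd* (CTSD, ENSDARG00000057698) encodes cathepsin D, the aspartic protease held to make the first cuts in vitellogenin. It was at 111.65 FPKM in the library labelled WT and 104.4 FPKM in the library labelled KO, a log2 ratio of -0.10. *ctsz* (CTSZ, ENSDARG00000043081), for cathepsin Z, a carboxypeptidase, was at 49.49 and 48.25 FPKM in the same order, a log2 ratio of -0.04. Both stayed within the middle 50% of the genes of their level.

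The summed FPKM of the 4 cathepsins was 1397.54 in the library labelled WT and 1115.63 in the library labelled KO, a ratio of 0.798. Without *ctsba* the sums were 741.86 and 723.07 FPKM, a ratio of 0.975. *ctsba* made up 46.9% of the 4 in the library labelled WT and 35.2% in the library labelled KO, while *ctsla* made up 41.6% and 51.1%. The median log2 ratio of -0.07 and the mean of -0.22 differ because of this 1 gene.

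Other cathepsin genes were read from a list chosen by function, 15 names of which 11 had a gene in the table and 8 of these were at 1 FPKM or more. Of these 8, 1 was at least 1.4-fold higher and none lower, beside 15.1% and 17.5% over all genes at 1 FPKM or more. Their median log2 ratio was -0.03. The transcript of *ctss2.1*, a gene of the cathepsin S group (ENSDARG00000074656), was the most abundant cathepsin of both libraries, at 799.8 FPKM in the library labelled WT and 781.17 FPKM in the library labelled KO. It stood at 1.22 times *ctsba* in the first library and 1.99 times in the second. *ctsa*, whose product, cathepsin A, is a serine carboxypeptidase, was at 88.5 and 68.92 FPKM, a log2 ratio of -0.36. The gene past the fold was *ctss2.2*, a low gene at 0.68 and 1.3 FPKM, and *ctsh*, of cathepsin H, was at 1.18 and 0.91 FPKM. The paralogue *ctsbb*, singled out with its values in view, had 0.09 FPKM in the library labelled WT and was listed at the smallest value, 0.01 FPKM, in the other, so almost all of the cathepsin B level measured here was that of *ctsba*. Over all 15 cathepsin genes with a value the sums were 2341.82 and 2030 FPKM, and without *ctsba* 1686.14 and 1637.44 FPKM.

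**Figure D3:**
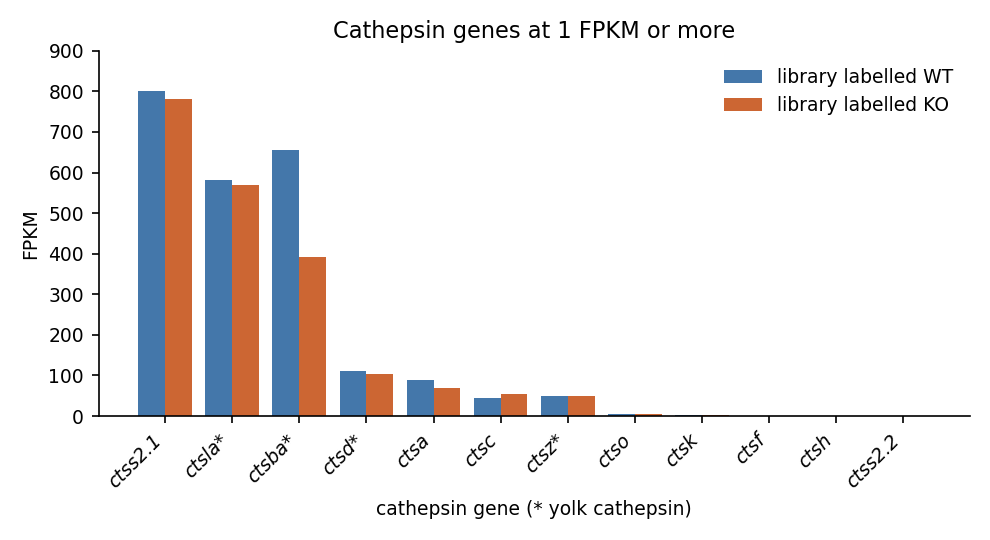
FPKM of the 12 cathepsin genes that reached 1 FPKM, with the library labelled WT in blue and the library labelled KO in orange, 1 library each. The yolk cathepsins carry an asterisk. *ctss2.1*, *ctsla* and *ctsba* stand far above the rest, and of these 3 *ctsba* differs most, at 655.68 and 392.56 FPKM.

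Among inhibitors of cysteine cathepsins, 3 of the 5 listed names had a value. The cystatin gene *cst14a.2* was the most abundant, at 91.87 and 103.97 FPKM, and *cst14a.1* was at 11.29 FPKM in the library labelled WT and 23 FPKM in the library labelled KO, a log2 ratio of 1.02 and the only one of the 3 past 1.4-fold. *cst3*, of cystatin C, was at 3.99 and 3.23 FPKM. Over all genes at 1 FPKM or more, 32.6% were past 1.4-fold in either direction.

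The vitellogenins, the main ligands, were at very low transcript levels. Of the 8 listed vitellogenin genes 4 had a value, between 0.01 and 0.41 FPKM, with sums of 0.59 FPKM in the library labelled WT and 0.27 FPKM in the library labelled KO. *vtg3* was the highest of them, at 0.41 and 0.21 FPKM, values too low to compare. The 8 liver marker genes were at 1.46 FPKM or less in both libraries. An apolipoprotein E gene, *apoeb*, whose product is a ligand of LDL receptor family members, was the single ligand gene at 1 FPKM or more. It was at 17.29 FPKM in the library labelled WT and 46.13 FPKM in the library labelled KO, a log2 ratio of 1.41.

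Other genes of the LDL receptor family were far below *vldlr* and *lrp13*. Of 16 with a value 8 were at 1 FPKM or more, and the highest was 20.71 FPKM. One was higher and 1 lower by 1.4-fold, beside 15.1% and 17.5% over all genes at 1 FPKM or more. The median log2 ratio was -0.11. *ldlrb*, an LDL receptor gene, was at 13.27 FPKM in the library labelled WT and 20.71 FPKM in the library labelled KO, a log2 ratio of 0.64. One of the genes under LRP1 (ENSDARG00000097827), a receptor with many ligands, was at 6.51 and 3.71 FPKM, a log2 ratio of -0.79. *lrp6*, a coreceptor of Wnt signalling, was at 14.42 and 19.51 FPKM, and *lrp10* at 17.56 and 17.17 FPKM. The level of *vldlr* was 12.1 times that of *ldlrb* in the library labelled WT and 7.32 times in the library labelled KO.

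Of 10 adaptor and sorting genes at 1 FPKM or more, 1 was higher by 1.4-fold and none lower, beside 15.1% and 17.5% over all genes. The median log2 ratio was 0.03. *dab2*, whose product links the tails of LDL receptor family members to clathrin, was the most abundant, at 427.79 FPKM in the library labelled WT and 492.63 FPKM in the library labelled KO, a log2 ratio of 0.20. *mesd*, of another chaperone of the family, was at 87.57 and 85.01 FPKM. The 2 genes under SORT1, of the sorting receptor sortilin, were at 15.06 and 12.82 FPKM and at 0.99 and 1.23 FPKM.

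Clathrin and endosome genes numbered 28 at 1 FPKM or more, with a median log2 ratio of 0.07. By 1.4-fold 1 was higher and 1 lower, beside 15.1% and 17.5% over all genes. Most of the 28 have a mean of 20 FPKM or more, where fewer genes pass that fold. The share in either direction was 12.5% at 20 to under 100 FPKM and 10.9% at 100 FPKM or more. *clta*, a clathrin light chain gene, was at 249.97 and 207.36 FPKM. A pair of genes stands under PICALM, a clathrin assembly protein. One (ENSDARG00000012866) was at 107.34 and 87.54 FPKM and the other (ENSDARG00000014137) at 8.6 FPKM in the library labelled WT and 2.63 FPKM in the library labelled KO. The third of 3 genes under RAB7A, a GTPase of late endosomes, was at 0.3 and 1.22 FPKM (ENSDARG00000021287), and *vps4a*, of the sorting of endosomal membrane, was at 9.7 and 7.15 FPKM.

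The V-ATPase pumps protons into lysosomes and yolk bodies, where acid conditions activate cathepsins. Of its 20 measured genes 2 were lower by 1.4-fold and none higher, beside 17.5% and 15.1% over all genes at 1 FPKM or more. The median log2 ratio was 0.08. Those lower were the pair of genes for subunit E. *atp6v1e1b* was at 24.3 FPKM in the library labelled WT and 14.07 FPKM in the library labelled KO. *atp6v1e1a* was at 1.67 and 0.92 FPKM, and whether the 2 genes share reads was not tested. The most abundant, under ATP6V0C (ENSDARG00000057853), was at 133.38 and 128.5 FPKM, and *atp6v1f* was at 58.95 and 51.51 FPKM. *atp6v0b* had the largest ratio upward, with 18.66 and 25.68 FPKM.

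Of 23 other lysosomal genes at 1 FPKM or more, 9 were lower by 1.4-fold and none higher, beside 17.5% lower and 15.1% higher over all genes at that level, and the median log2 ratio was -0.17. Of genes with a mean of 1 to under 20 FPKM 22.1% were lower by that fold. At 20 to under 100 FPKM, where *lgmn*, *grnb* and *lamp1b* lie, it was 6.29%. With a pseudocount of 1 FPKM 5 of the 23 were lower, and with trimmed mean scaling 8. Several of the 9 are low genes. *lgmn*, of legumain, an asparaginyl protease that in mammals processes cathepsins, was at 41.06 FPKM in the library labelled WT and 20.62 FPKM in the library labelled KO, a log2 ratio of -0.99. Low genes with large ratios were the second gene under ASAH1, an acid ceramidase, at 2.75 and 1.6 FPKM, and *hexb*, of a hexosaminidase subunit, at 2.69 and 1.63 FPKM. Of 2 more, picked with their values in view, the progranulin gene *grnb* was at 35.48 and 23.75 FPKM, and the lysosomal membrane protein gene *lamp1b* was at 66.17 and 47.18 FPKM. The log2 ratio of *lamp1b*, -0.487, was only just past 1.4-fold. The most abundant lysosomal gene, *lamp2*, also of a membrane protein, had the opposite direction, at 873.05 FPKM in the library labelled WT and 1183.85 FPKM in the library labelled KO, a log2 ratio of 0.44 that lies within 1.4-fold. *psap*, of prosaposin, was at 299.05 and 295.97 FPKM. Over the 26 listed genes with a value, the sums were 1710.37 and 1933.57 FPKM, a ratio of 1.13 of KO over WT. The direction of the sums is thus opposite to that of the counts, and *lamp2* made up the largest part of both.

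**Figure D4:**
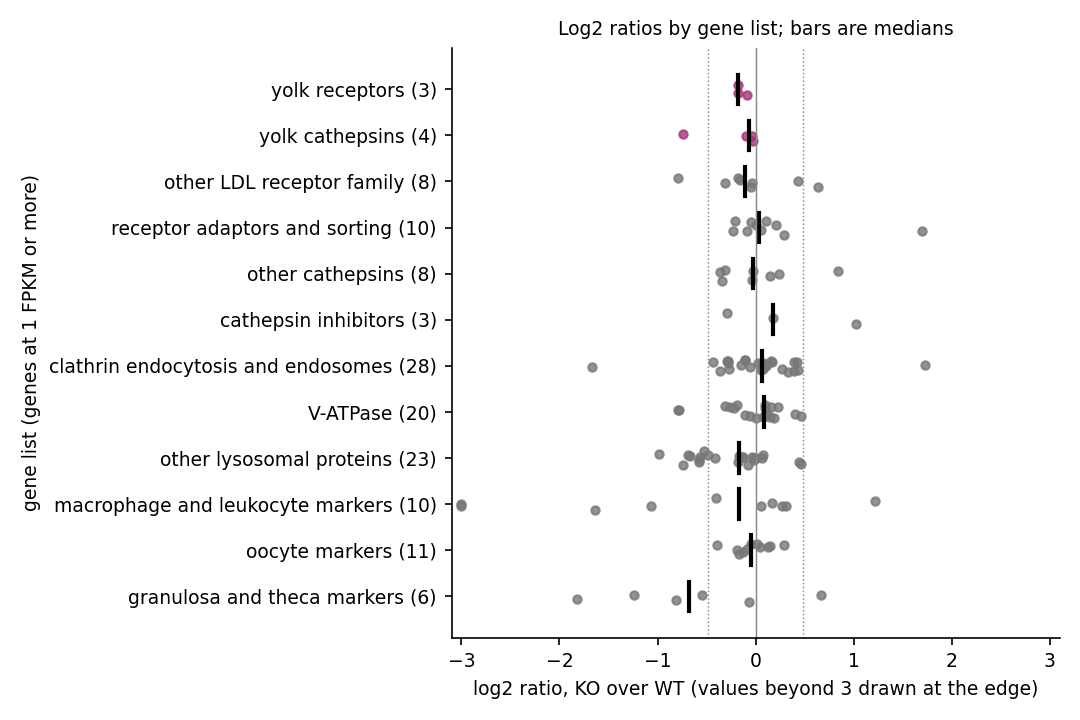
Log2 ratios of KO over WT by list for the genes at 1 FPKM or more, with the number of genes in brackets, medians as black bars, and dotted lines at 1.4-fold. The list of vitellogenins and lipoprotein ligands and the liver and erythrocyte marker lists are not drawn. Values beyond the axis are drawn at its edge. The yolk cathepsins sit near 0 except *ctsba* at -0.74, and 9 of the 23 other lysosomal genes lie left of the lower dotted line.

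Marker genes give a rough view of the cells in the ovaries, and not of the stages of their follicles. The study counted fewer follicles of the vitellogenic stages III and IV in knockout ovaries. The part of follicle stage in the values given here was not tested. All 11 oocyte markers were abundant, between 25.65 and 3334.89 FPKM, and lay within 1.4-fold. Most genes of such levels did: 12.5% at a mean of 20 to under 100 FPKM and 10.9% at 100 FPKM or more were further apart. The log2 ratios of the markers ran from -0.40 to 0.28 around a median of -0.05. The ratios of *vldlr*, *lrp13*, *lrpap1*, *ctsla*, *ctsd* and *ctsz* lie inside this range and that of *ctsba* outside it. Scaled so that the median oocyte marker was equal in both libraries, *ctsba* had a log2 ratio of -0.69. The 12 genes of granulosa and theca cells with a value, the somatic cells around the oocyte, summed to 45.95 FPKM in the library labelled WT and 58.02 FPKM in the library labelled KO. Of the 6 of them at 1 FPKM or more 4 were lower and 1 higher by 1.4-fold. Those lower are low genes, and at a mean of 1 to under 20 FPKM 22.1% of all genes were lower and 19.3% higher. The higher one was *cyp17a1*, the most abundant of the list, at 30.73 and 48.96 FPKM. Without it the sums were 15.22 and 9.06 FPKM, so the direction of the sums depends on this 1 gene. The defining receptor gene *fshr* was at 0.07 FPKM and listed at 0.01 FPKM.

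Cathepsins are also abundant in macrophages. The 15 macrophage and leukocyte genes with a value summed to 36.02 FPKM in the library labelled WT and 17.88 FPKM in the library labelled KO. Of the 10 at 1 FPKM or more 1 was higher and 4 lower by 1.4-fold. Most of them have a mean of 1 to under 20 FPKM, where 19.3% of all genes were higher and 22.1% lower. The 5 genes under MFAP4 carry the difference, at 24.64 and 5.12 FPKM, and the other 10 summed to 11.38 and 12.76 FPKM. Each of these 10 was at 3.39 FPKM or less, among them *csf1ra* at 0.16 and 0.35 FPKM and *ptprc* at 0.64 and 0.43 FPKM. The 6 erythrocyte marker genes with a value summed to 14.78 FPKM in the library labelled WT and 25.57 FPKM in the library labelled KO. Only *hbaa1* reached 1 FPKM, at 12.8 and 23.05 FPKM, and it too has a mean of 1 to under 20 FPKM. The part of somatic cells or leukocytes in the lower *ctsba* value was not tested. In whole ovaries fewer cells of a type and less RNA per cell cannot be told apart.

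The genes that lie beside *ctsba* on its chromosome in the RefSeq annotation, 4 on each side, were looked at after its value was seen. Of the 5 with a value of 1 FPKM or more, the abundant *gcfc2* was at 37.69 and 35.18 FPKM and *smyd2a* at 42.23 and 48.98 FPKM, both within 1.4-fold. *ywhaqb* and *cenpf* were within it too, at 9.15 and 8.68 FPKM and at 4.08 and 4.03 FPKM. *xkr5b*, a low gene next to *ctsba*, was at 1.31 and 0.87 FPKM, a log2 ratio of -0.54 that is past 1.4-fold in the direction of *ctsba*.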

How the data were processed

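Total RNA of whole ovaries, 3 adult fish per genotype, was enriched for mRNA with oligo(dT) and sequenced on a BGISEQ-500 as single-end reads of 50 bases, 1 library per genotype. The authors mapped reads with HISAT and Bowtie2 and calculated the deposited FPKM with RSEM, on build GRCz10 according to the submitters' processing notes. Tool versions: not given in the sources used here. Deposited FPKM values have 2 decimals and a smallest value of 0.01, which can stand for 0. The table holds no read counts, so counting error is unknown. Of the 3000 genes that lay from 0.05 to 0.4 FPKM in each library, 471 had log2 ratios within 0.05 of 0 and read counts were not recovered from these values.

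Symbols matched 20336 of 22328 gene IDs, many in the human form. A name was matched exactly, then in capitals, then without closing paralogue letters. RefSeq (GRCz12tu) gives *ctsb* and *lrp2* as other names of *ctsba* and *lrp2a*, and served for names and neighbours only. Members and lists were chosen with earlier results of these data known. Named genes are all members, *sox3*, and of each list the 3 largest ratios and 2 highest means at 1 FPKM or more. The values of 1 gene that this rule covers are not reported here. Exceptions are named as chosen after their values were seen, apart from cell markers. With 1 library per genotype no test was run: log2 ratios (pseudocount 0.1 FPKM), counts at 1.4-fold, medians and sums are descriptions. Alternatives were pseudocounts of 0.01 and 1 FPKM, scalings by trimmed mean, median ratio, summed FPKM and oocyte markers, filters, and folds of 1.2 and 2. The scaling to oocyte markers, and that to summed FPKM for single genes, medians and counts, were added after seeing the data. Ratio and scaling code was tested on simulated data. Python 3.11.15, numpy 2.4.6, pandas 2.3.3 and matplotlib 3.10.9 were used.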

Additional observations from a re-analysis of the deposited data

How the results depend on the processing

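No paired analysis was possible because each genotype has 1 library, and for the same reason none could be left out. *ctsba* was at least 1.4-fold lower under both other pseudocounts and all 4 scalings, and no member was higher by 1.4-fold under any setting. Both outcomes were fixed in advance. The main log2 ratios of all members were negative, the scalings shift them by less than 0.1, and *ctsba* is too abundant for a pseudocount to matter. The count of members lower by 1.4-fold was 2 with no filter on low values, which adds *lrp2a*, and 0 at a fold threshold of 2. The median log2 ratio of the cathepsins, -0.07, became -0.22 as a mean over members, which *ctsba* sets. The log2 ratios of *ctsla* and *ctsz* turned to 0.03 and 0.02 when scaled to the oocyte markers. For context lists, a pseudocount of 1 FPKM changed the number lower from 2 to 1 for the V-ATPase and from 9 to 5 for other lysosomal genes, and the number higher from 1 to 0 for other cathepsins. Of 142 recomputed values 134 stayed within 0.1 on the log2 scale or, for counts, within 1.5 times. Each of the 4 scalings shifts a log2 ratio by less than 0.1, so under them no log2 ratio could pass that limit. This count therefore says little about robustness, and nothing about the spread between fish or libraries.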
